A study of Mus musculus with 2 samples.

Results

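The POU class 3 factors are the 4 mouse genes Pou3f1, Pou3f2, Pou3f3 and Pou3f4, taken here by symbol from 43346 annotated genes, and all 4 were found in both libraries. They were measured by total RNA sequencing of whole forebrain from 2 newborn B6NCrl mice (postnatal day 0), pup 1 (replicate 1) and pup 3 (replicate 2), with 1 forebrain per library and 10 ng of RNA over 200 nt long. The labels name no treatment, allele or second tissue, so both libraries form 1 group and no contrast between conditions exists. The labels give both pups the same donor identifier and leave their sex uncollected, so spread between them may be technical in part. In whole tissue, fewer cells of a type and less RNA per cell cannot be told apart.

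POU factors are transcription factors that grip DNA with a bipartite POU domain, made of a POU-specific part and a homeodomain, and bind octamer-like sites, often beside a Sox protein. Class 3 holds the neural members known by the older names Oct-6 or SCIP (Pou3f1), Brn-2 (Pou3f2), Brn-1 (Pou3f3) and Brn-4 (Pou3f4). Pou3f2 and Pou3f3 act together in the production, migration and upper-layer fate of cortical neurons, Pou3f2 is also needed for the neuroendocrine neurons of the hypothalamus, Pou3f1 is best known for timing Schwann cell myelination, and Pou3f4 for the striatum and inner ear.

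Each of the 4 genes is annotated as 1 exon with 1 transcript, so its transcript share was 100% in both pups and no splice form had to be estimated. By GENCODE on mm10, Pou3f1 spans 124656807 to 124660655 on the plus strand of chromosome 4 (3849 nt), and Pou3f2 spans 22482780 to 22488366 on the minus strand of that chromosome (5587 nt). Pou3f3 spans 42695768 to 42703176 on the plus strand of chromosome 1 (7409 nt), and Pou3f4 spans 110814280 to 110817207 on the plus strand of chromosome X (2928 nt). The GC content of the transcript was 63.9% for Pou3f1, above 99.2% of protein-coding genes whose TPM averaged at least 1 (TPM is the share of transcripts taken by a gene after division by its length). It was 44.4% for Pou3f2, 51.1% for Pou3f3 and 51.8% for Pou3f4, beside a median of 49.8% over those genes.

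Genes this closely related can share reads, so the stretch of 90 coding bases in which the 4 are most alike is shown, found by comparison without gaps against Pou3f1. It encodes part of the POU-specific domain, and 73 of its 90 bases are the same in all 4 genes. Capitals mark the 17 positions at which at least 1 gene differs. It lies at chr4:124658532-124658621 (plus strand) in Pou3f1, chr4:22487160-22487249 (minus) in Pou3f2, chr1:42698169-42698258 (plus) in Pou3f3 and chrX:110815113-110815202 (plus) in Pou3f4, read from GENCODE transcripts on GRCm38.
Pou3f1: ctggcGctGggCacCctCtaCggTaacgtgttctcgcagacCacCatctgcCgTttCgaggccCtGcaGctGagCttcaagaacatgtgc
Pou3f2: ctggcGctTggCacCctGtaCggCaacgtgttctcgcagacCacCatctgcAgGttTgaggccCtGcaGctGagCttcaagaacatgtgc
Pou3f3: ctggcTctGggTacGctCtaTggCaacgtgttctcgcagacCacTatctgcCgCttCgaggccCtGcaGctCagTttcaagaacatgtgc
Pou3f4: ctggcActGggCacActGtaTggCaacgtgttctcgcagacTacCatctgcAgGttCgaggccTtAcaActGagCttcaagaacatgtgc

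Pou3f1 and Pou3f2 were the closest pair in this stretch, at 93.3% identity, and Pou3f3 and Pou3f4 the least close, at 85.6%. The longest exact run shared by any 2 of the 4 transcripts was 38 nt, between Pou3f1 and Pou3f2. The deposited estimate gave whole read counts for 3 of the genes, with a posterior standard deviation of 0 in both pups: 1628 and 1460 for Pou3f2, 3582 and 4782 for Pou3f3, and 402 and 335 for Pou3f4, in pups 1 and 3. Pou3f1 had 1632 and 2723.92 expected counts with a posterior SD of 0.23 and 0.42. Hardly any read was thus divided between a POU class 3 gene and another entry. The antisense gene Gm2164 shares 330 exonic bases with the 5′ end of Pou3f1 and was given 1.08 counts in pup 3 and 0 in pup 1. The posterior SD of Gm2164 was 0.23 and 0.42, equal to that of Pou3f1. Strand use in counting is not stated, so the origin of reads on the shared bases rests on that assignment.

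Pou3f1 and Pou3f3 were the highest of the 4, Pou3f2 was below both and Pou3f4 was the lowest. Pou3f1 had 17.5 TPM in pup 1 and 25.82 TPM in pup 3, a mean of 21.7 ± 5.88 (SD, n = 2). Pou3f3 had 19.7 and 23.25 TPM, a mean of 21.5 ± 2.51. Both were higher in pup 3, and the range of each over the pups overlapped that of the other.

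Pou3f2 had 11.93 and 9.45 TPM in pups 1 and 3, a mean of 10.7 ± 1.75. Pou3f4 had 5.71 and 4.21 TPM, a mean of 4.96 ± 1.06. Both were lower in pup 3, and neither range overlapped that of any other member. All 4 genes were detected, meaning a TPM of at least 1 in each pup, as were 60.7% of 21474 protein-coding genes. Their median level was 16.1 TPM, beside 17.0 TPM over the 13030 protein-coding genes detected in this way. In that set Pou3f1 lay at percentile 56.4, Pou3f3 at 56.2, Pou3f2 at 38.1 and Pou3f4 at 21.5.

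**Figure D1:**
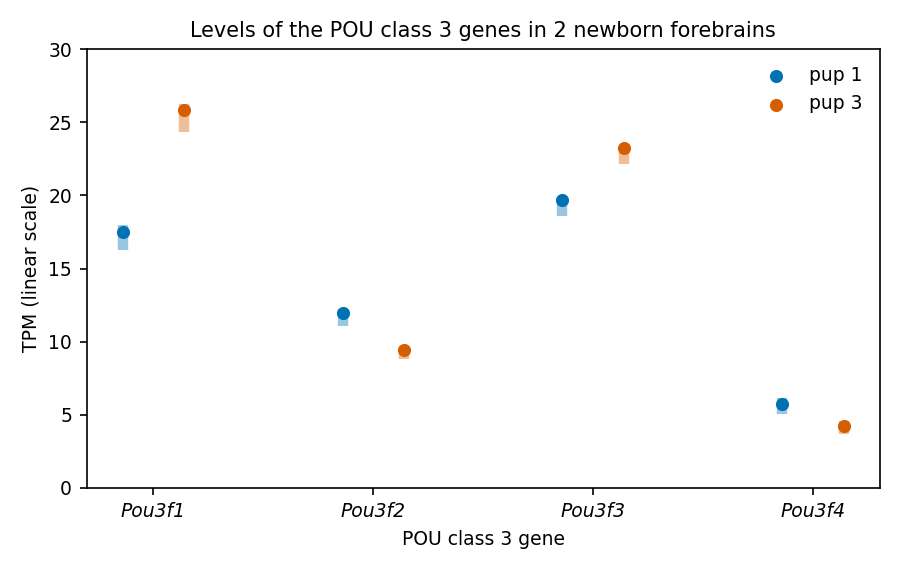
TPM (linear axis) of each POU class 3 gene in pup 1 and pup 3 (points), with the deposited interval around the posterior mean TPM as a shaded bar; no confidence level is stated for it. Pou3f1 and Pou3f3 are above Pou3f2 and Pou3f4 in both pups, and the order of the first pair changes from pup 1 (17.5 and 19.7) to pup 3 (25.82 and 23.25).

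The order of the genes was compared within each library, where scaling between libraries has no part. In 5 of 6 pairs the deposited intervals were apart in the same direction in both pups. The exception was the leading pair: Pou3f3 was above Pou3f1 in pup 1 (18.6 to 19.9 against 16.3 to 18.0 TPM) and below it in pup 3 (22.1 to 23.4 against 24.4 to 26.3 TPM). Each interval covers the quantification of 1 library and not the spread between animals. With that spread in view, 2 of 6 pairs had a mean log2 ratio of TPM + 0.1 over 3 SD.

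Pou3f2 over Pou3f4 was the steadiest pair, 2.07 in pup 1 and 2.22 in pup 3 (log2 1.10 ± 0.069, n = 2). Pou3f3 over Pou3f4 was 3.41 and 5.42 (log2 2.10 ± 0.47). Pou3f1 over Pou3f4 was 3.03 and 6.01, and Pou3f1 over Pou3f2 1.46 and 2.71. Pou3f3 over Pou3f2 was 1.65 and 2.45. These last 3 ratios kept 1 direction in both pups but did not exceed 3 SD, and an exact two-sided sign-flip test over 2 animals cannot go below p = 0.5.

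Together the 4 genes had 54.8 TPM in pup 1 and 62.7 TPM in pup 3. Pou3f3 took nearly the same part of that sum in both pups, 35.9% and 37.1% (36.5% ± 0.807). Pou3f1 took 31.9% and 41.2%, Pou3f2 21.8% and 15.1%, and Pou3f4 10.4% and 6.71%. Thus Pou3f1 held the larger part in pup 3, and Pou3f2 and Pou3f4 the larger part in pup 1.

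These levels rest on the annotated length, most of which is untranslated sequence on which annotations differ. RefSeq gives 3010 nt for Pou3f1, 6272 nt for Pou3f2, 4443 nt for Pou3f3 and 4730 nt for Pou3f4. With the same counts and those lengths, an alternative chosen after the data were seen, Pou3f3 led in both pups at 33.2 and 39.1 TPM, followed by Pou3f1 at 22.5 and 33.3 TPM. Pou3f2 was then at 10.6 and 8.40 TPM and Pou3f4 at 3.49 and 2.57 TPM. Reads were not counted again on the RefSeq models, so each level moved only by its change in length. The order below the leading pair was the same with either set of lengths.

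Among all 15 POU genes, class 3 was 1 of 4 classes with a detected member. Of the 11 genes of other classes, 5 reached that level, beside 60.7% of protein-coding genes. The median was 0.21 TPM over all 11 and 11.8 TPM over those 5. Pou6f1, a brain-expressed factor, was the highest at 23.42 and 23.15 TPM in pups 1 and 3 (23.3 ± 0.191, n = 2). It was above all 4 class 3 genes in pup 1 and below Pou3f1 and Pou3f3 in pup 3. Pou2f2 (Oct-2, a lymphoid and neural factor) had 17.95 and 8.06 TPM, and Pou2f1 (Oct-1, a ubiquitous octamer factor) 14.47 and 9.21 TPM. Pou4f1 (Brn-3a, a factor of sensory and habenular neurons) had 5.43 and 1.41 TPM. The pluripotency factor Pou5f1 (Oct-4) was at 0.03 and 0 TPM, the pituitary factor Pou1f1 at 0.02 and 0 TPM, and Pou4f2 was at 0 in both pups. Pou2f2 and Pou4f1 were over 2-fold lower in pup 3 with intervals apart, a difference of 2-fold in either direction being found in 3.98% of 14985 genes. After scaling by TMM, which assumes that most genes are unchanged, the log2 ratio was -0.86 for Pou2f2, under 2-fold, and -1.59 for Pou4f1.

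**Figure D2:**
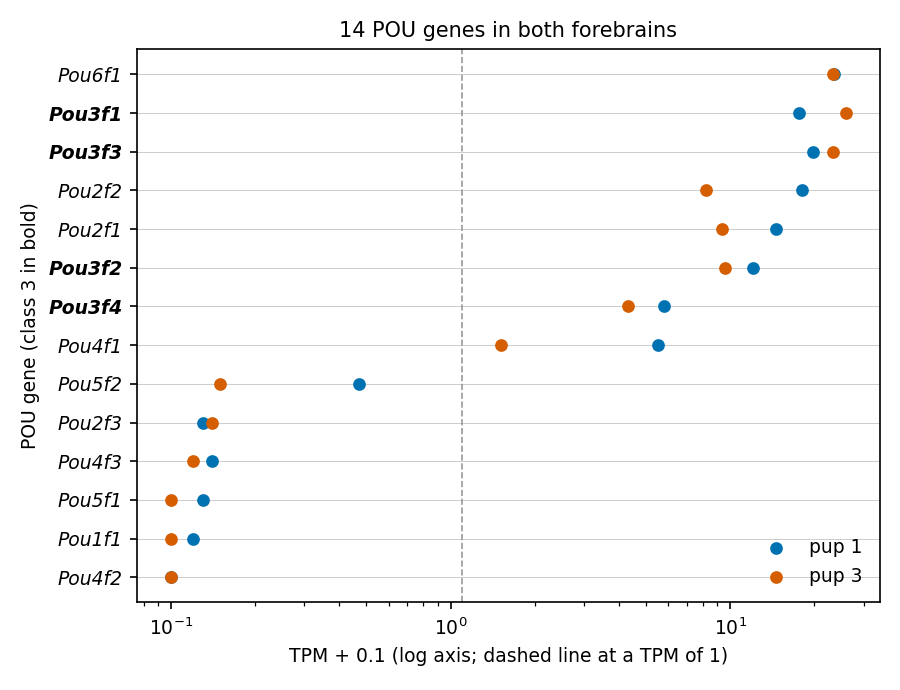
TPM + 0.1 (log axis) of 14 POU genes in pup 1 and pup 3, ordered by mean level, with class 3 in bold and a dashed line at a TPM of 1. All 4 class 3 genes lie right of the line in both pups, with Pou6f1, Pou2f2, Pou2f1 and Pou4f1 of other classes.

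The pups were then compared gene by gene, as pup 3 over pup 1 of TPM + 0.1. Each pup is 1 library, so this compares 2 libraries and has no test. Pou3f1 was 1.47 times and Pou3f3 1.18 times as high in pup 3, whereas Pou3f2 was 1.26 times and Pou3f4 1.35 times as high in pup 1. The deposited intervals of the pups were apart for all 4 genes, as they were for 53.6% of 14985 genes whose TPM averaged at least 1. Intervals apart and higher in pup 3, as for Pou3f1 and Pou3f3, were found in 5.66% of those genes, and apart and lower, as for Pou3f2 and Pou3f4, in 48.0%. None of the 4 differed by 2-fold or more with intervals apart, against 3.98% of those genes.

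The libraries as a whole differed in the direction of Pou3f2 and Pou3f4. Of the 14985 genes, 80.4% had a lower TPM in pup 3, and the median log2 ratio of protein-coding genes was -0.27, against -0.05 for the 4 POU class 3 genes. The log2 ratio of Pou3f1 (0.56) was above that of 98.3% of the 14985 genes and that of Pou3f3 (0.24) above 93.8%. Those of Pou3f2 (-0.33) and Pou3f4 (-0.43) were above 42.3% and 32.1%. Across 13373 protein-coding genes the ratio went with transcript length (Spearman's rho -0.49, genes not being independent replicates) and little with GC content (rho 0.13). Pou3f3 is longer than 97.7% of those genes, Pou3f2 than 92.9%, Pou3f1 than 77.9% and Pou3f4 than 60.6%. The part of length or GC content in the values of the 4 genes was not tested.

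TMM scaling (edgeR's trimmed mean of M-values) moved every log2 ratio up by 0.29. Pou3f1 was then 1.79 times and Pou3f3 1.44 times as high in pup 3. Pou3f2 stood at 0.967 and Pou3f4 at 0.904 times the value of pup 1, with intervals that overlapped. On this scale Pou3f1 and Pou3f3 had intervals apart and higher in pup 3, as had 23.3% of genes, and Pou3f1 was higher by 1.5-fold or more, as were 2.62% of genes. Both these thresholds were chosen after the data were seen. With scaling to 334 and 278 ERCC spike-in counts, a small base, Pou3f2 and Pou3f4 changed sign, to log2 ratios of 0.11 and 0.01.

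**Figure D3:**
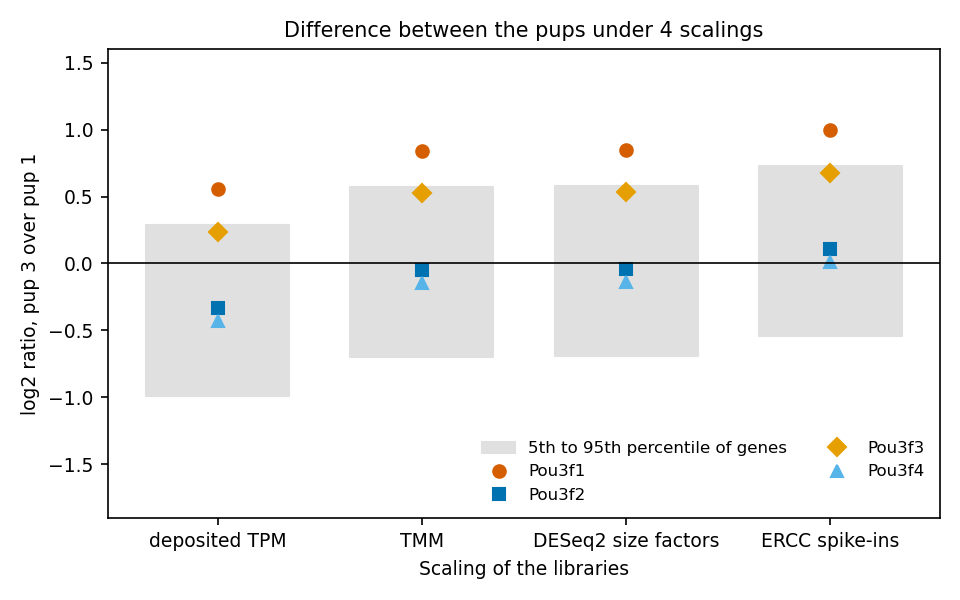
Log2 ratio of pup 3 over pup 1 for each POU class 3 gene (points) under 4 scalings of the libraries, with the 5th to 95th percentile of 14985 genes as grey boxes. Each scaling shifts points and box by the same amount, so Pou3f1 lying above the box is 1 comparison and not 4. Pou3f2 and Pou3f4 lie near 0 under TMM.

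The surroundings of the 4 genes were examined for every annotated gene that overlaps a member or starts within 100 kb. Near Pou3f3, the noncoding gene Pantr1 (also named linc-Brn1a) starts 926 bases upstream of Pou3f3 on the opposite strand, spans 42590782 to 42694842 on chromosome 1, and shares no exonic base with it. Pantr1 had 197 TPM in pup 1 and 352 TPM in pup 3 (275 ± 110 TPM), higher in pup 3 like Pou3f3, with a ratio of 1.78 between the pups. After TMM scaling that ratio was 2.17. Intervals apart and higher in pup 3, as for both genes, were found in 5.66% of 14985 genes. Pantr1 has a modelled length of 589 nt against 7409 nt for Pou3f3, and the part of length in their ratios was not tested.

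Per length, Pantr1 was 10.0 and 15.1 times as high as Pou3f3. Its modelled transcripts are short, so by counts, which are not per length, the ratio was 0.672 and 1.03 (2406 and 4924 counts for Pantr1). Its leading transcript, of 615 nt, held 39.3% and 45.1% of its TPM, a model estimate over 12 overlapping transcripts. The sense-overlapping gene AC122898.1 starts 843 bases upstream of Pou3f3 and holds it within an intron, with no shared exonic base, and had 2.84 and 2.51 TPM. Pantr2 (linc-Brn1b), on the opposite strand with its start 17686 bases downstream, had 3.32 and 1.76 TPM. The noncoding gene Dalir had 2 and 13 counts, at 0.04 and 0.22 TPM.

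**Figure D4:**
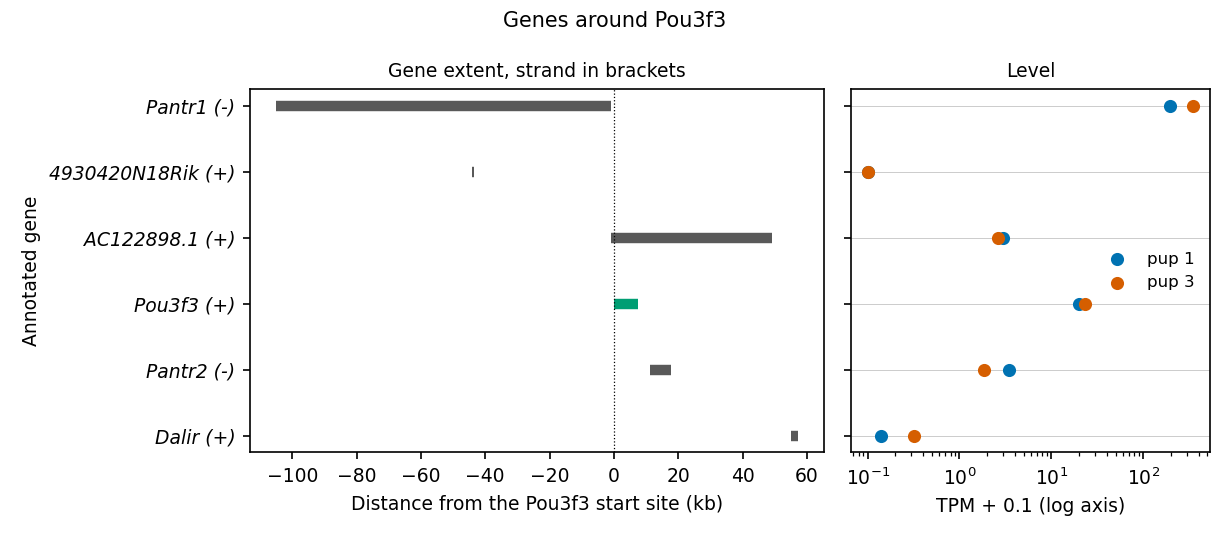
Left, extent of Pou3f3 (green) and of measured genes that start within 100 kb, as distance from its start site in kb, with the strand in brackets. Right, TPM + 0.1 (log axis) in pup 1 and pup 3: Pantr1, at 197 and 352 TPM, lies above Pou3f3 at 19.7 and 23.25 TPM.

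Noncoding genes also lie just upstream of Pou3f2 and Pou3f4 on the opposite strand. These are the lincRNA genes Gm30731, which starts 2182 bases upstream of Pou3f2, and Gm44593, which starts 1956 bases upstream of Pou3f4, and neither has a value in these tables. Within 100 kb of Pou3f1, 4 of 13 measured genes were detected: Sf3a3 (a splicing factor subunit, 72.94 and 56.75 TPM), Utp11 (28.66 and 25.7 TPM), Inpp5b (9.7 and 6.66 TPM) and Fhl3 (1.24 and 1.67 TPM). The processed pseudogene Gm12917 had 0.6 and 0.26 TPM. None of the 4 measured genes within 100 kb of Pou3f2 reached that level, nor 0.5 TPM. Gm44593 is the only annotated gene that starts within 100 kb of Pou3f4.

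Promoter sequences were available from RefSeq (GRCm38.p6) for 3 of the 4 genes, as windows of 300 bases from 250 before to 50 after the start. They are shown because motif content is a feature that the choice of genes did not use. Each is printed only up to the first start site that RefSeq or GENCODE gives, with the CCAAT box (CCAAT on either strand) in capitals. The printed parts are chr4:22488367-22488616 (minus strand) for Pou3f2, chr1:42695518-42695767 (plus) for Pou3f3 and chrX:110814129-110814279 (plus) for Pou3f4.
Pou3f2: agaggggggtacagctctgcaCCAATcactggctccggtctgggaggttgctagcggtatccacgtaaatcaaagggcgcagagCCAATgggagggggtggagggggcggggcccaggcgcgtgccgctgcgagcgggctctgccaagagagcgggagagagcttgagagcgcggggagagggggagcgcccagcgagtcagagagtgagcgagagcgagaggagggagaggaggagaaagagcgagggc
Pou3f3: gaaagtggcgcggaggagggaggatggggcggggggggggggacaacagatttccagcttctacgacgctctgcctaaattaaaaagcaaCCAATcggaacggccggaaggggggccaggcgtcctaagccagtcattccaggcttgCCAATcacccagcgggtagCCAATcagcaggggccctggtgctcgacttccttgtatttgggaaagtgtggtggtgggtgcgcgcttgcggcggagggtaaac
Pou3f4: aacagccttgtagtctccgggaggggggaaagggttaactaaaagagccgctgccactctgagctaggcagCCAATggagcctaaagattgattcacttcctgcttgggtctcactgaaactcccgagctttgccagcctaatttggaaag

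The full window held 2 CCAAT boxes in Pou3f2 and 3 each in Pou3f3 and Pou3f4, of which 2 in Pou3f4 lie beyond the GENCODE start and so outside the printed part. Of 32841 such windows, 37.4% held at least 1 CCAAT box, 11.7% at least 2 and 3.37% at least 3. This motif was chosen after the sequences had been seen. The octamer ATGCAAAT, the classical POU site, was in none of the 3 windows and in 1.74% of all windows, and the TATA box (TATAAA) in none of the 3 and in 13.6%, both strands counted. The GC box (GGGCGG, either strand) was found 5 times in Pou3f2, 1 time in Pou3f3 and not in Pou3f4, and 35.7% of windows held at least 1. In Pou3f2 the matches at bases 247, 251, 255 and 259 of the window overlap in 1 run at the start site. That run lies mostly outside the printed part. The windows held 24, 18 and 15 CpG dinucleotides in Pou3f2, Pou3f3 and Pou3f4, beside a median of 7. These are matches of letters and do not show binding.

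A chosen list of 10 factors that POU class 3 proteins are known to work with was then read. All 10 partner factors were detected, as were 60.7% of 21474 protein-coding genes, with a median of 11.8 TPM over the 10. Sox11 and Sox4, SoxC factors of immature neurons, were highest at 249.48 and 203.37 TPM and at 175.45 and 175.36 TPM in pups 1 and 3, and Sox3 was lowest at 2.33 and 1.75 TPM. Sox2, the classical partner in neural progenitors, had 24.38 and 17.35 TPM, close to Pou3f1 and Pou3f3. Myt1l, a neuronal zinc finger factor, had 50.31 and 38.5 TPM. Intervals were apart and lower in pup 3 for 7 of the 10 partners and apart and higher for none, beside 48.0% and 5.66% of all 14985 genes. After TMM scaling the log2 ratios of Sox11, Sox4 and Sox3 were -0.0095, 0.28 and -0.11. Those of Sox2 and Myt1l were -0.20 and -0.10.

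Of 8 genes reported as targets of class 3 factors, with a median of 11.4 TPM, 7 were detected, beside 60.7% of protein-coding genes. Fabp7, a radial glia gene with a POU site, had 2258.16 and 2432.58 TPM. The reelin adaptor Dab1 had 120.69 and 111.09 TPM. The Cdk5 activators Cdk5r1 and Cdk5r2, which act in neuron migration, had 101.02 and 100.92 TPM and 8.41 and 8.35 TPM. Egr2, the Schwann cell target of Pou3f1, was the lowest at 0.92 and 0.99 TPM. Of the 7 targets with a mean of 1 TPM or more, 1 was apart and higher in pup 3 and 2 apart and lower, none by 2-fold, beside 5.66%, 48.0% and 3.98% of all genes.

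Lists of the regions where class 3 genes act were set beside the difference between the pups. The 8 upper-layer cortical genes had a median level of 20.2 TPM, with the highest values in Lmo4 (212.28 and 225.07 TPM) and Cux1 (74.28 and 68.74 TPM), with Unc5d lowest (6.08 and 2.87 TPM). Within it Rorb was lower in pup 3, at 10.34 and 5.54 TPM. In that list 2 of 8 genes had intervals apart and higher in pup 3 and 4 apart and lower, beside 5.66% and 48.0% of all genes. The 8 ventral telencephalon and striatum genes had a median level of 39.2 TPM. They were headed by Foxp1 (143.15 and 113 TPM) and Dlx1 (120.49 and 86.99 TPM), with Gsx2 lowest (1.52 and 1.23 TPM). Of the 8, 7 were apart and lower in pup 3, as were 48.0% of all genes. After TMM scaling the log2 ratios of Foxp1, Dlx1 and Gsx2 were -0.056, -0.18 and 0.0006. The 7 neuroendocrine genes had a median level of 4.41 TPM and were headed by Avp (157.21 and 69.05 TPM) and Arnt2 (49.04 and 40.06 TPM), with Sim1 lowest (0.29 and 0.1 TPM). Of its 5 genes with a mean of 1 TPM or more, 4 were apart and lower (48.0% of all genes), among them Avp and Oxt (6.99 and 1.82 TPM) by over 2-fold (3.98% of all genes in either direction). After TMM scaling the log2 ratio of Avp was -0.90, under 2-fold, and that of Oxt -1.60.

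**Figure D5:**
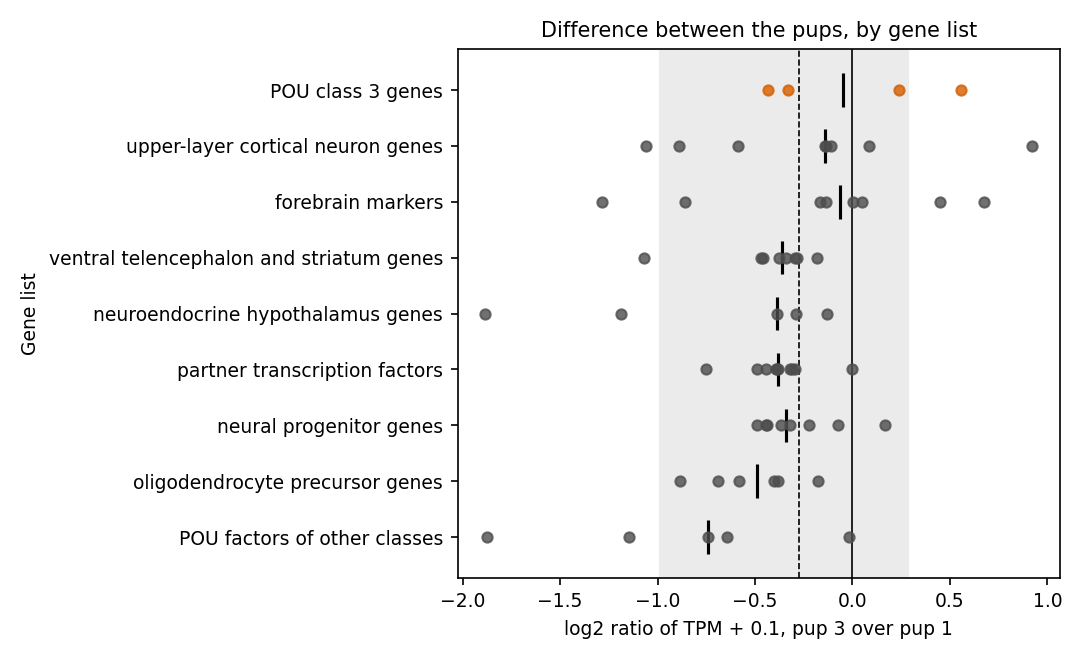
Log2 ratio of pup 3 over pup 1 for POU class 3 genes (orange) and for genes of 8 lists, kept where TPM averaged at least 1 (grey), with the median of each list as a bar, the 5th to 95th percentile of 14985 genes shaded and the median of protein-coding genes (-0.27) dashed. Pou3f1 and Pou3f3 lie right of 0 at 0.56 and 0.24, as do Neurod6 at 0.68 and Emx1 at 0.45.

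The tissue matched its label by its defining genes. All 8 forebrain markers were detected, as were 60.7% of protein-coding genes. The 8 had a median of 32.4 TPM and summed levels of 399 and 513 TPM in pups 1 and 3. Neurod6 led (206.23 and 329.46 TPM) and Emx2 was lowest (9.76 and 3.94 TPM). Of 8 midbrain and hindbrain markers, Gbx2, which the thalamus also expresses, was the one detected (18.53 and 7.65 TPM). Hoxa2, Hoxb2 and Hoxb3 were at 0 in both pups, and the summed level of the list was 18.8 and 7.75 TPM. Emx1 had 24.98 and 34.1 TPM. In deposited TPM, the cortical genes Neurod6 and Emx1 thus differed in the direction of Pou3f1 and Pou3f3. The cortical genes Emx2 and Rorb, with Gbx2, Avp and Oxt, were lower in pup 3 like Pou3f2 and Pou3f4, as were 80.4% of 14985 genes. TMM scaling left Neurod6 and Emx1 higher in pup 3, at log2 ratios of 0.96 and 0.73. Emx2, Rorb, Gbx2, Avp and Oxt were then at -1.002, -0.60, -0.98, -0.90 and -1.60. Pou3f2 and Pou3f4 were nearer to no difference on that scale, at -0.048 and -0.15, with intervals that overlapped. The part of the tissue sampled in these differences was not tested.

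Markers of other cells were then read in the same libraries, in which 60.7% of protein-coding genes were detected. None of 6 Schwann cell markers was detected (median 0.373 TPM, summed 2.88 and 3.09 TPM), with Prx (1.2 and 0.92 TPM) and Egr2, also among the targets above, the highest and Pmp2 the lowest (0.06 and 0 TPM). Pou3f1 had 17.5 and 25.82 TPM, and the part of Schwann cells in its level was not tested. The 6 cranial mesenchyme markers summed to 81.1 and 66.0 TPM (median 2.26 TPM, 4 of 6 detected), with Col1a1 (37.56 and 27.57 TPM) and Col1a2 (37.5 and 33.1 TPM) the highest and Tbx15 lowest (0.58 and 0.42 TPM). The 6 epidermis markers summed to 25.21 and 23.96 TPM (median 0.455 TPM, 2 of 6 detected), with Krt1 (14.74 and 11.73 TPM) and Krt10 (9.55 and 10.96 TPM) the highest and Krt5 at 0.02 TPM in both pups. The 6 oligodendrocyte precursor genes were all detected (median 6.55 TPM, summed 156 and 131 TPM), with Olig1 highest (119.46 and 105.85 TPM), then Olig2 (13.24 and 10 TPM), and Gpr17 lowest (3.15 and 1.66 TPM). The 8 neural progenitor genes were all detected (median 17.6 TPM, summed 576 and 457 TPM), led by Vim (236.65 and 189.41 TPM) and Slc1a3 (166.04 and 122.5 TPM), with Eomes lowest (4.2 and 3.98 TPM). In deposited TPM, oligodendrocyte precursor genes were apart and lower in pup 3 in 6 of 6 cases and progenitor genes in 6 of 8. The same was found for 48.0% of all genes. After TMM scaling the log2 ratios of Olig1, Olig2 and Gpr17 were 0.11, -0.12 and -0.60. Those of Vim, Slc1a3 and Eomes were -0.036, -0.15 and 0.21. The part of any of these cells in the levels of the POU class 3 genes was not tested.

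With 2 libraries, the genes most like a member are those at nearly the same level in both. By distance of log2(TPM + 0.1) over the 2 libraries, the nearest protein-coding genes were Zbtb8os and Hist1h3i to Pou3f1 (0.067 and 0.12), Cryz and Acrbp to Pou3f2 (0.014 and 0.025), Tmem203 and Fhl2 to Pou3f3 (0.014 and 0.027), and Homer2 and Cfap74 to Pou3f4 (0.010 and 0.011). None of them is a POU factor or a gene of the lists above.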

How the data were processed

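The authors' deposited gene and transcript tables, on assembly mm10 with GENCODE M4 per the deposited notes, hold expected counts, TPM and posterior mean TPM per the file headers, and each transcript's percent of its gene's TPM. The tables also hold interval bounds around the posterior mean TPM, which were read as a deposited signal range of unknown level. For the aligner, quantifier and strand setting, the sources used here give no name or version. Libraries totalled 40066013 and 40431306 expected counts over genes in pups 1 and 3. Members had 335 to 4782 counts.

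Symbols, positions and transcripts came from GENCODE M21 on the same build, matched by identifier without version. Levels are TPM with SD over 2 pups. A gene was taken to differ between pups if its TPM averaged at least 1, TPM + 0.1 differed at least 2-fold and the deposited intervals were apart. Ratios of TPM + 0.1 understate differences of low genes. The rule was tried on simulated libraries with random counting noise only and with changes larger than 2-fold. They had no spread between animals and no shift of a whole library, so the rule was not tested under those conditions. In R 4.3.3, rounded expected counts gave TMM factors (edgeR 4.0.16, after filterByExpr at min.count 10) and size factors (DESeq2 1.42.0), and no count test was run. Tables and plots were made in Python 3.11.15 by way of pandas 2.3.3 and numpy 2.4.6, the rank correlations with scipy 1.17.1, the plots with matplotlib 3.10.9. Named genes were the members, neighbours within 100 kb that reached 0.5 TPM in either pup, the 2 highest and the lowest member of each of 13 lists, other POU genes at 1 TPM or more, and the 2 nearest genes in level; others (Pou5f1, Pou1f1, Pou4f2, Hoxa2, Hoxb2, Hoxb3, Sox2, Myt1l, Rorb, Oxt, Emx1, Cdk5r1, Cdk5r2, Gm2164, Dalir, Gm30731, Gm44593) were named after their values were seen. Some genes that the rule or lists include are not reported here. The members and lists were chosen with earlier results of these data known.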

Additional observations from a re-analysis of the deposited data

How the results depend on the processing

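RefSeq lengths with unchanged counts were tried after the data were seen. Mean TPM was then 27.9 for Pou3f1, 36.1 for Pou3f3 and 3.03 for Pou3f4. Shares of the summed level were 12.6% for Pou3f2, 47.2% for Pou3f3 and 4.04% for Pou3f4. With expected counts in place of TPM, shares were 25.9% for Pou3f1, 50.4% for Pou3f3 and 4.58% for Pou3f4. The log2 ratio of Pou3f1 over Pou3f3 was -0.97 with counts and ranged from -0.17 to 0.15 with 1 pup left out, so its sign rests on the pup. Pou3f1 over Pou3f4 was 1.91 with a pseudocount of 1, 2.52 with counts and 3.15 with RefSeq lengths, and Pou3f2 over Pou3f3 was -1.42 with counts and -1.92 with RefSeq lengths. Each of these 3 ratios passed 3 SD under the settings named, apart from those with 1 pup left out. Counts and RefSeq lengths shift a pair's log2 ratio by nearly the same amount in both pups. Passing 3 SD there thus follows from gene length and is no firmer measure of a difference in level. The log2 ratios of pup 3 over pup 1 for Pou3f1, Pou3f2 and Pou3f3 were 0.84, -0.048 and 0.52 with TMM, 0.85, -0.041 and 0.53 with DESeq2 size factors, 1.00, 0.11 and 0.68 with spike-ins, and 0.83, -0.059 and 0.51 centred on protein-coding genes, the last chosen after the data were seen. For Pou3f4 they were -0.14 with DESeq2 and 0.010 with spike-ins. The sign of Pou3f2 and Pou3f4 thus rests on the scaling. Members differing between pups numbered 4 by intervals alone, 1 with TMM and 1.5-fold and 2 with TMM and intervals alone, all chosen after the data were seen. Genes at 1 TPM or more near the members numbered 7 within 100 kb, 5 within 50 kb and 14 within 250 kb. Over all genes, the 596 that differed became 230 with TMM, 224 with DESeq2, 223 with spike-ins, 240 when centred, 270 with a pseudocount of 1, 997 with no filter, 2538 at 1.5-fold, 1197 with TMM and 1.5-fold, 8034 by intervals alone and 6186 with TMM and intervals alone. The share higher in pup 3 went from 3.19% to 21.3% with TMM, 22.3% with DESeq2, 51.6% with spike-ins and 19.6% when centred. Of 52 alternatives of list values, 40 stayed within the limits set and 12 moved. No paired analysis was possible because the libraries form 1 group. Depth limits Pou3f4 most, and 2 animals give no test.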
